A study of Bos taurus with 6 samples.

Results

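The regions described here are the stretches of the bovine genome in which at least 1 of 6 ChIP-seq libraries had a called peak and which began within the first 1000000 bp of a chromosome from 1 to 29. They were found by joining the peaks of all 6 libraries wherever they overlapped by at least 1 bp, so that a chain of overlapping peaks became 1 region. This gave 5619 regions in the whole series, of which 4905 were on the autosomes and 272 met the rule. The rule used position alone, and neither the score of a peak nor the library that held it entered the choice. A peak is a stretch where the peak caller found aligned sequence tags piled up above its expectation, and its score is -10 times the log10 of its p-value. Scores began at 50 in these lists, which stands for a p-value of 1e-05.

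MAT2A is the catalytic subunit of the methionine adenosyltransferase found in most tissues, the enzyme that makes S-adenosylmethionine, the methyl donor for DNA and histone methylation. It can also be found on chromatin, together with chromatin-modifying proteins. Bovine autosomes are acrocentric, with the centromere close to one end, and the DNA around it holds long arrays of satellite repeats that genome assemblies represent only in part. Which end of each assembled chromosome lies next to the centromere was not examined here.

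The libraries came from bovine blastocysts produced in vitro, collected on day 8 and combined into 2 pools of 669 and 677 embryos, and 3 libraries were made from the chromatin of each pool. Input was chromatin without immunoprecipitation, MAT2A-ChIP was recovered with a mouse monoclonal antibody against MAT2A, and IgG control with a mouse IgG2B isotype antibody. Oocytes were of Japanese Black cows or of their F1 with Holstein, and whole blastocysts were pooled, so each library averages over embryos and over their cell types, with n = 2 libraries per type. The lists hold 1788 to 2094 peaks each with no read counts, so the number of reads under a peak is unknown, and a region without a peak in a library may hold reads under the calling threshold. No defining marker of the embryo or of MAT2A binding can be checked in a list of positions.

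Every autosome had at least 1 of the 272 regions, but 163 of them (59.9%) were on chromosome 14. The other 28 autosomes held 109, between 1 and 15 each with a median of 3. Chromosome 24 followed with 15 regions and chromosome 9 with 8, while chromosomes 6, 12, 22 and 28 had 1 each. On 22 of the 29 autosomes the first megabase held more regions than the mean of the following windows of that chromosome, counted from window 2 to window 40 in steps of 1 Mb. Regions called in all 6 libraries lay in the first megabase of 12 autosomes, against a median of 2 and a highest value of 6 autosomes for windows 2 to 40.

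**Figure D1:**
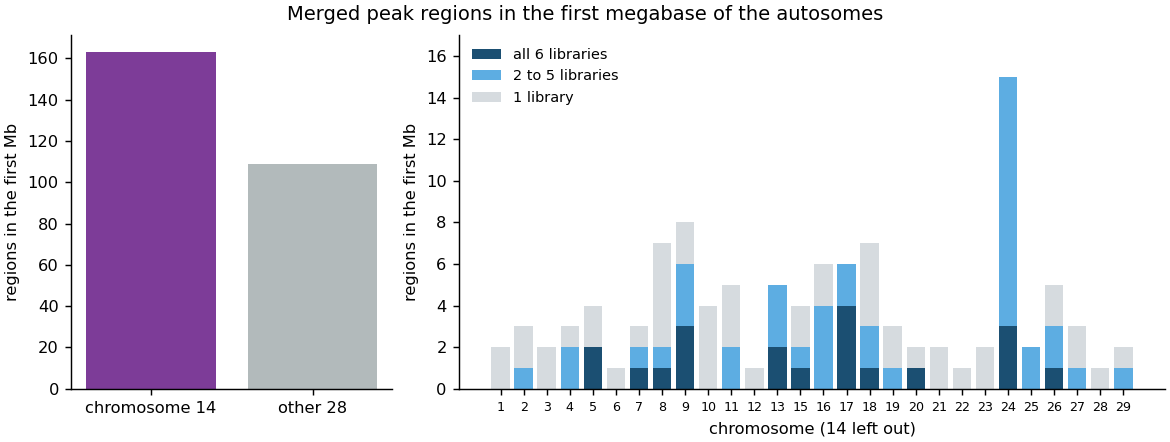
Number of merged regions that began in the first megabase (y axis), for chromosome 14 and the other 28 autosomes together (left) and for each autosome except chromosome 14 (right), where colours give the number of libraries with a peak. Chromosome 14 holds 163 regions against 109 on the other 28, and chromosome 24, the next, holds 15.

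The peaks were denser in the first megabase than further along the chromosomes in every library. Input 1 had 191 peaks there and Input 2 had 177. MAT2A-ChIP 1 had 141 and MAT2A-ChIP 2 had 119, and the IgG control libraries had 134 and 143. Both Input libraries were thus above all 4 immunoprecipitated libraries, whose counts overlapped between antibodies. Divided by the density in windows 2 to 40 of the same autosomes, the peaks per Mb were 11.7 and 12.5 times as many in Input 1 and Input 2. The ratio was 7.44 and 7.13 in MAT2A-ChIP and 7.32 and 8.62 in IgG control. The geometric mean ratio was 8.87, with a log2 ratio of 3.15 ± 0.36 (SD, n = 6 libraries), and all 6 libraries had a ratio above 1 (exact sign-flip permutation test, two-sided, p = 0.03125, the smallest value that 6 libraries allow). Adjusted over the 3 measures tested in this way, density, peak width and peak score, p was 0.09375 (same exact permutation test, Benjamini-Hochberg). The 6 libraries come from only 2 pools, and with the pool as the unit the exact p was 0.5, which is the smallest that 2 pools allow.

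Chromosome 14 accounted for much of this density but not for all of it. Without chromosome 14 the ratio was 3.98 and 4.89 in Input, 2.87 and 3.01 in MAT2A-ChIP and 2.79 and 3.17 in IgG control. Every library was still above 1, with a geometric mean of 3.38 (exact sign-flip permutation test, two-sided, p = 0.03125). That p is the smallest that 6 libraries allow. It was not adjusted, and it treats libraries of the same pool as separate units. Averaged over the libraries, the first megabase of the other 28 autosomes held 1.93 peaks per Mb. It ranked 2 among the first 40 windows, after window 31 with 2.15, and the median of windows 2 to 40 was 0.414. In window 31, 63 of the 104 regions were on chromosome 29, and in the first window of the 28 autosomes 15 of the 109 were on chromosome 24. With the chromosome that held most regions left out of each window in turn, the first window kept 109 regions, and the largest number in windows 2 to 40 was 69.

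**Figure D2:**
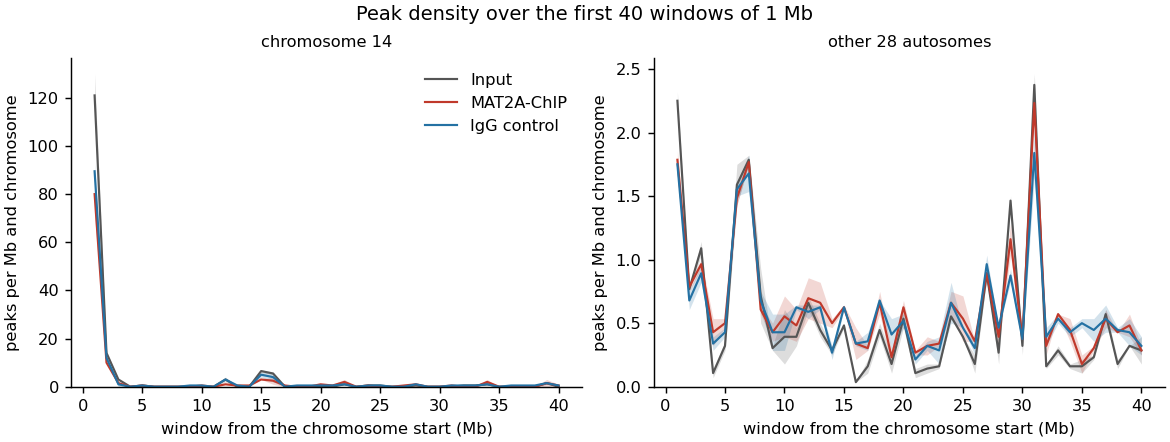
Peaks per Mb (y axis) in consecutive 1 Mb windows from the start of the chromosomes (x axis, Mb) for each library type, for chromosome 14 and for the other 28 autosomes; lines are means of 2 libraries and shading is their range. The first window is the highest of 40 on chromosome 14, at 96.8 peaks per Mb over the 6 libraries, and the second highest on the other 28 autosomes, at 1.93.

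On chromosome 14 the regions followed each other closely. The first megabase held 49.2% of the 331 regions of that chromosome, with a median gap of 2229.5 bp between neighbours, against 268351.5 bp in the rest of the autosomes. Together the 163 regions covered 66230 bp, which is 6.62% of the megabase. They were not spread evenly. Between 400 and 700 kb there were 70 regions, with 22, 23 and 25 in the successive steps of 100 kb, but between 800 and 900 kb only 4. The first 100 kb of chromosome 14 held 15 regions, none of them (0) shared by the 6 libraries and 7 from 1 library, where 10.1% and 73.3% of all autosomal regions were. Among only 15 regions, a count of 0 is near the background of 10.1%. Past the 1 Mb limit there were 11 regions between 1000 and 1100 kb, 1 in the following 100 kb, 0 in the next and 9 between 1300 and 1400 kb. After the last of them, which ended at chr14:1365523, no region followed for 823665 bp.

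The limit of 1 Mb thus fell inside the dense stretch of chromosome 14. Among the regions just inside it, chr14:994674-994901 was called in 4 libraries with a highest score of 92.88, and chr18:992679-992931 in 1 library with 55.53. Just outside it, chr14:1001887-1002331 was called in 6 libraries with a highest score of 137.55 and chr14:1002652-1002912 in 4 libraries with 108.31. All coordinates are those of bosTau8, counted from 1.

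On the other 28 autosomes the regions were gathered near the very start of the sequence. Of the 109 regions, 44 (40.4%) began in the first 100 kb, and 24 began in the first 10 kb. Those 24 lay on 10 autosomes, chromosomes 2, 5, 9, 13, 15, 16, 17, 18, 25 and 26. In peaks per Mb, the first 10 kb of the 28 autosomes held between 46.4 (IgG control 2) and 82.1 (Input 2), the stretch from 10 kb to 1 Mb held 1.08 to 1.55, and the stretch from 1 to 40 Mb held 0.474 to 0.647. These ranges did not overlap, and the order was the same in every library. The window of 10 kb was chosen after the data were seen, so no test is given for it.

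**Figure D3:**
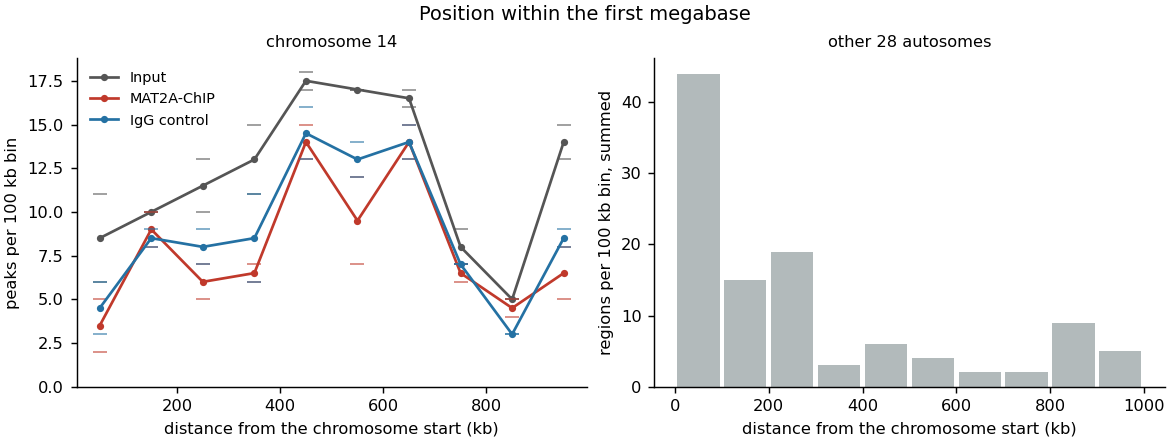
Position inside the first megabase, by distance from the chromosome start in steps of 100 kb (x axis): peaks per step on chromosome 14 (left; dots with a line are means of a library type and horizontal marks its 2 libraries) and regions per step summed over the other 28 autosomes (right). On chromosome 14 the Input mean is at or above both other means in each step, and on the other 28 autosomes 44 of 109 regions lie in the first 100 kb.

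Of the 24 regions in the first 10 kb, 8 (33.3%) had a peak in every library and 3 (12.5%) in just 1. From 10 kb to 1 Mb of these 28 autosomes the shares were 14.1% and 52.9%, and over all autosomal regions 10.1% and 73.3%. The 8 were on chromosomes 5, 9, 15, 17, 18 and 26, with a pair of them on chromosome 5 and another pair on chromosome 9. Both chr17:1-406, called in 5 libraries, and chr18:1-231, called in 4, began at the first assembled base. The scores of chr17:1-406 were 173 and 117 in Input, 66.3 and 69.8 in MAT2A-ChIP and 109 in IgG control 1, with no peak in IgG control 2. Its neighbour chr17:470-1178 was called in all 6 libraries, with scores of 1254 and 1484 in Input, 739 and 678 in MAT2A-ChIP and 792 and 736 in IgG control. Both Input scores of that region were above all 4 scores of the immunoprecipitated libraries, and the scores of MAT2A-ChIP and IgG control overlapped.

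The highest scores of all 272 regions were found on chromosome 17 as well. In chr17:269491-270721 the score was 3100 in both Input libraries, 1941 and 1934 in MAT2A-ChIP and 1694 and 1942 in IgG control. Between 99.7% and 99.9% of the peaks of each list had a lower score. The Input value is close to the top of the scale that these lists reach, because 5 peaks of each Input list were at 3100 or more. Another region of that chromosome, chr17:293239-293561, had scores of 895 and 796 in Input, 286 and 446 in MAT2A-ChIP and 307 and 312 in IgG control. In these regions, too, the MAT2A-ChIP and IgG control scores overlapped.

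On chromosome 8, region chr8:122064-123386 had 1893 and 1867 in Input, 974 and 931 in MAT2A-ChIP and 920 and 1058 in IgG control. The strongest region of chromosome 14, chr14:633038-633486, had 859 and 922 in Input, 881 and 547 in MAT2A-ChIP and 772 and 692 in IgG control. Here MAT2A-ChIP overlapped with Input, and both Input scores were above both IgG control scores, whereas in the regions of chromosomes 8 and 17 both Input scores were above all the others. On chromosome 5, chr5:2161-3471 was called in all 6 libraries with 538 and 476 in Input, 329 and 222 in MAT2A-ChIP and 223 and 161 in IgG control. Scores rise with sequencing depth as well as with enrichment, so these differences between lists were not tested. By the uniquely mapped reads that the study reports, Input was the deepest type in each pool. By all sequenced reads, IgG control was the deepest in each pool. The part of depth in the differences between Input and the other libraries was not tested.

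Chromosome 24 differed in position from the autosomes with regions at the sequence end. Its 15 regions lay between 131027 and 286131, with 11 of them between 200 and 300 kb. None of the 15 (0) were called in a single library, whereas 73.3% of all autosomal regions were. This was not particular to chromosome 24. Chromosomes 13, 17 and 25, which had regions in the first 10 kb, also had 0 from a single library, among 5, 6 and 2 regions. Both Input libraries had a peak in 12 of the 15, and both MAT2A-ChIP libraries and both IgG control libraries in 6 each, where the shares over all autosomal regions were 20.3%, 13.0% and 13.0%. On chromosome 9, by contrast, 3 of the 8 regions lay in the first 10 kb, and a second group of 3 lay between 39095 and 41463. The remaining pair, chr9:858176-858418 and chr9:948071-948314, were each called in 1 library.

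Of the 272 regions, 60 (22.1%) were called in all 6 libraries, while 10.1% of all autosomal regions were. Another 97 (35.7%) came from 1 library, against 73.3% of all autosomal regions. The others were called in 2 (34 regions), 3 (33), 4 (22) or 5 libraries (26). On chromosome 14, 40 regions had a peak in each of the 6 lists and 49 in 1 list, and on the other 28 autosomes 20 were in all 6 and 48 in 1. Other crowded windows had as large a part in all 6 libraries, with 29 of 94 regions (30.9%) in window 7 and 31 of 104 (29.8%) in window 31, summed over the autosomes. Regions of the same 6 lists are not replicates, and no test was made over them.

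**Figure D4:**
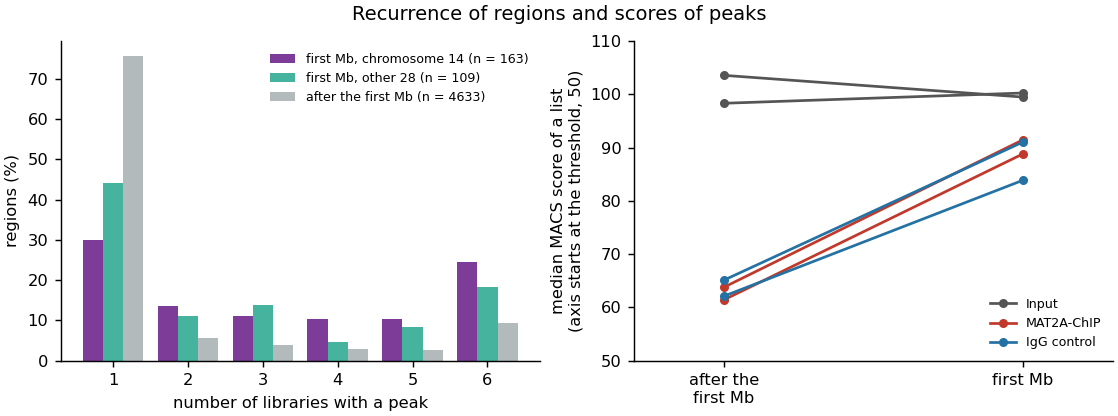
Left, percentage of regions (y axis) with a peak in 1 to 6 libraries (x axis) on chromosome 14, on the other 28 autosomes and after the first megabase; right, median peak score of each library after and in the first megabase, on an axis that starts at 50. Regions of all 6 libraries make up 24.5%, 18.3% and 9.39%, and the median score is higher in the first megabase in all 4 immunoprecipitated libraries and in Input 1.

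The regions called in all 6 libraries were wider than the others. Their median width was 500.5 bp, compared with 245 bp for the regions called in 1 library and 295 bp for all 272. Widths ran from 122 to 3029 bp, and 16 regions (5.88%) were 1 kb or wider, against 110 (2.37%) in the rest of the autosomes. The widest, chr14:841402-844430, joined 18 peaks over 3029 bp and had a peak in each library, with scores from 140 in MAT2A-ChIP 2 to 568 in Input 1. The next was chr14:483920-485982 with 2063 bp, followed by chr9:3743-5141 with 1399 bp. Joining peaks of more libraries widens a region by construction, and the width of single peaks was therefore compared separately. The median peak width in the first megabase was 0.974 to 1.07 times that of the other autosomal peaks of the same list, above 1 in 5 of 6 libraries (geometric mean 1.03, exact sign-flip permutation test, two-sided, p = 0.125, adjusted 0.125).

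The share of a list's autosomal peaks that fell in the first megabase differed between Input and the immunoprecipitated libraries. It was 11.9% of 1601 peaks in Input 1 (95% Wilson interval 10.4 to 13.6%) and 12.2% of 1453 in Input 2 (10.6 to 14%). MAT2A-ChIP 1 had 8.02% of 1759 (6.84 to 9.38%) and MAT2A-ChIP 2 had 7.90% of 1506 (6.64 to 9.37%). IgG control 1 had 8.15% of 1645 (6.92 to 9.57%) and IgG control 2 had 9.23% of 1550 (7.88 to 10.8%). The intervals cover counting error only. Both Input shares were above all the others, with a mean of 12.1% against 8.32%, a difference of 3.73 percentage points (exact permutation test, two-sided, p = 0.0667, the smallest that 2 against 4 libraries allow, and 0.111 within pools). Without chromosome 14 the means were 4.65% and 3.35%, again with no overlap between Input and the other libraries (exact permutation test, two-sided, p = 0.0667). With peaks under a score of 100 left out, the difference over all autosomes was 0.797 percentage points, and Input no longer stood apart from the other libraries (exact permutation test, two-sided, p = 0.267). A cut at 100 removes unlike parts of the lists. The median score after the first megabase was 98.35 and 103.6 in Input, and 61.4 to 65.1 in the others. With lists of equal length the difference was 3.83 percentage points (exact permutation test, two-sided, p = 0.0667).

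Both MAT2A-ChIP shares were below both IgG control shares, but 2 libraries against 2 cannot show a difference by an exact test. The mean was 7.96% ± 0.0807 (SD, n = 2) in MAT2A-ChIP and 8.69% ± 0.764 (SD, n = 2) in IgG control, a difference of -0.727 percentage points (exact permutation test, two-sided, p = 0.333, the smallest that 2 against 2 allow). Without IgG control 2 the difference was -0.187 points, and without IgG control 1 it was -1.27. Without chromosome 14 the 2 means were 3.32% and 3.37%, and the exact permutation p was 1. In that comparison the libraries of the 2 types overlapped.

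**Figure D5:**
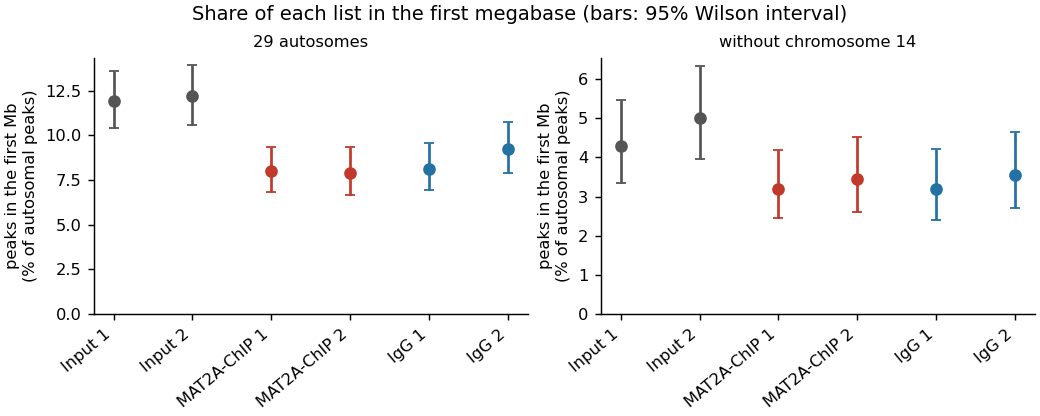
Share of the autosomal peaks of each library that lay in the first megabase (y axis, percent, with 95% Wilson intervals), for all autosomes and without chromosome 14. The Input libraries lie at 11.9% and 12.2% and the 4 immunoprecipitated libraries between 7.90% and 9.23%.

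Other windows in which peaks were crowded also held more Input peaks. There were 15 windows of 1 Mb with 20 or more regions on the autosomes, the first megabase of chromosome 14 among them, and in 15 of the 15 the mean number of Input peaks was above that of the immunoprecipitated libraries, by 1.13 to 1.90 times. The first megabase of chromosome 14 had the most regions of these windows, ahead of chromosome 1 from 145 to 146 Mb with 86. Its Input mean of 121 peaks was 1.43 times the immunoprecipitated mean of 84.8, and it ranked 6 of the 15. As a share of all peaks in these windows, it held 22.2% of the Input peaks and 21.5% of the immunoprecipitated peaks (exact permutation test, two-sided, p = 0.733, 2 against 4 libraries). In the first megabase of the other 28 autosomes the ratio was 1.27. Beyond the first megabase it was 1.36 in the dense windows and 0.787 elsewhere. The limit of 20 regions was chosen after the data were seen, and regions called in Input alone counted towards it. These ratios and shares therefore describe windows that Input peaks helped to choose. The windows also include the first megabase of chromosome 14 itself. The test of its share therefore cannot show whether it differs from the other windows.

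Regions were most often shared by both Input libraries. Both Input libraries had a peak in 132 of the 272 regions (48.5%), against 20.3% of all autosomal regions. Both MAT2A-ChIP libraries had one in 83 (30.5%), against 13.0%, and both IgG control libraries in 82 (30.1%), against 13.0%. A peak in at least 1 library of each of the 3 types was found in 109 regions (40.1%), against 16.6% of all autosomal regions. In 51 regions (18.8%) no Input library had a peak, compared with 59.8% of all autosomal regions. In 63 regions (23.2%) no immunoprecipitated library had one, compared with 17.3%. On chromosome 14 these were 44 of 163 (27%), and on the other 28 autosomes 19 of 109 (17.4%), close to the value for all autosomal regions.

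Few regions had peaks in both libraries of 1 type and in no other library. There were 11 for Input (4.04%, against 2.16% of all autosomal regions), 0 for MAT2A-ChIP (against 0.245%) and 0 for IgG control (against 0.204%). At these background shares, counts of 0 among 272 regions are near the background. Ranked by the lower of their 2 Input scores, the first of these regions were chr14:918786-919003, with 117 and 106, chr16:1208-1395, with 82.8 and 102, and chr14:53206-53376, with 88.5 and 77.0. Of the 97 regions called in 1 library, 52 were from Input, 21 from MAT2A-ChIP and 24 from IgG control. On chromosome 14 these were 37, 4 and 8, whereas the other 28 autosomes together had 15 from Input, 17 from MAT2A-ChIP and 16 from IgG control. In the rest of the autosomes 689 were from Input, 1417 from MAT2A-ChIP and 1392 from IgG control. The highest score in the single-library regions of the first megabase ran from 50.2 to 143, with a median of 62.0, and it was 79.0 on chromosome 14 and 55.0 on the other 28 autosomes.

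The share of regions in common was similar within and between antibodies. Of the regions called in either MAT2A-ChIP library, 53.5% were called in both, and for the IgG control pair it was 48.5%. Between a MAT2A-ChIP and an IgG control library it was 49.7 to 53.8% over the 4 pairs. The Input pair shared 59.7%, the highest of the 15 pairs of libraries. These shares have the same libraries in several pairs, and they were not tested.

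Peak scores in the first megabase stood higher relative to the rest of the list in the immunoprecipitated libraries than in Input. The median score was 100.28 in the first megabase and 98.35 elsewhere in Input 1, and 99.52 and 103.6 in Input 2. In MAT2A-ChIP it was 88.84 against 61.4 and 91.48 against 63.8. For IgG control the medians were 83.89 against 62.1 and 91.07 against 65.1. The ratio was therefore 1.02 and 0.961 in Input, 1.45 and 1.43 in MAT2A-ChIP and 1.35 and 1.399 in IgG control. Over all 6 libraries the geometric mean was 1.25, above 1 in 5 of 6 (exact sign-flip permutation test, two-sided, p = 0.09375, adjusted 0.125). A comparison chosen after the values were seen gave a mean ratio of 0.990 in Input and 1.41 in the immunoprecipitated libraries (exact permutation test, two-sided, p = 0.0667, the smallest that 2 against 4 libraries allow). With peaks under a score of 100 left out, the ratio over all libraries was 0.894, so its direction turned when weak peaks were left out. With lists of equal length it was 1.21 (exact sign-flip permutation test, two-sided, p = 0.125).

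Among the 60 regions called in all 6 libraries, the median score was 224 and 199 in Input, 136 and 125 in MAT2A-ChIP and 121 and 146 in IgG control. At these medians, 76.4 to 80.7% of the peaks of the list lay below. The regions of this kind in the rest of the autosomes stood at 83.7 to 86.2%. Regions shared by all libraries thus made up a larger part of the first megabase, but with a lower percentile of their median score in each list.

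The ChIP-seq part of the study asked which genomic regions MAT2A may interact with. Its filter for MAT2A-ChIP specific peaks asks for a peak of both replicates. That peak must overlap no peak of the Input, or none of the IgG control, of the same pool. Of 89 MAT2A-ChIP 1 peaks in the first megabase that overlapped a MAT2A-ChIP 2 peak, 7 passed this filter (7.87%, 95% Wilson interval 3.86 to 15.4%), and 7.55% of all replicated autosomal peaks passed. With IgG control in the place of MAT2A-ChIP, 6 of 95 passed (6.32%, 2.93 to 13.1%), against 6.62%. With Input in its place, 37 of 137 passed (27%, 20.3 to 35%), against 27.4%. In all 3 cases the share in the first megabase was close to that of all autosomes. The intervals cover counting error only, and no test was made over peaks.

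The 7 MAT2A-ChIP specific peaks all had a peak of the other control in their region. Of the 89 replicated MAT2A-ChIP peaks in the first megabase, 0 were absent from both other types, against 12 of 689 (1.74%) on all autosomes. For IgG control it was 0 of 95, against 10 of 695 (1.44%). At these shares, both counts of 0 are near the background. Of the 7 MAT2A-ChIP specific peaks, chr29:194484-194658 had the highest score in replicate 1. It scored 108 in the first replicate and 59.6 in the second, and it passed against IgG control. On chromosome 14 there were 4. These were chr14:454499-454672, with 99.95 and 51.67, chr14:682734-683035, with 78.0 and 82.3, chr14:994690-994856, with 74.4 and 92.9, and chr14:49926-50199, with 59.6 and 73.2. The last of these passed against Input and the other 3 against IgG control. The remaining pair were chr11:53712-54105, with 73.1 and 75.1, and chr7:82269-82567, with 55.5 and 74.7, and both passed against IgG control. For comparison, the 6 IgG control specific peaks had 52.3 to 62.1 in IgG control 1 and 52.6 to 98.1 in IgG control 2, and 5 of them were on chromosome 14.

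For the specific peaks of chromosome 14 the nearest gene in the peak annotation used by the study was C14H8orf33, an uncharacterised open reading frame. For the peak of chromosome 29 it was PANX1, which encodes a channel protein of the plasma membrane, and for that of chromosome 11 it was ZC3H8, which encodes a zinc finger protein. For that of chromosome 7 it was LOC100125913. In that annotation all of these peaks lay further from the gene than the limit set there for a gene to be associated with a peak. Gene models of bosTau8 were not used here, so whether the regions lie in exons, introns or between genes was not examined.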

How the data were processed

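ChIP-seq peaks of 6 libraries were analysed, for which each of 2 pools of bovine blastocysts gave an Input, a MAT2A-ChIP and an IgG control library. The authors removed adapters with bcl2fastq2, aligned the reads with Bowtie 1.1.2 to bosTau8, leaving out scaffolds, and ran MACS at default settings on every library separately. The deposited lists give for each peak its coordinates and its score, which is -10 times the log10 of its p-value. Scores rise with depth, so they were tested only as ratios within a list.

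Peaks overlapping by at least 1 bp were merged over the 6 libraries, and bedtools 2.31.1 gave the same 5619 of 5619 regions. Regions on chromosomes 1 to 29 that began before 1000000 bp were kept, without a filter on score or width. Densities are peaks per Mb by peak start, compared with windows 2 to 40 of the same chromosomes. Libraries were the units of all tests, which were exact sign-flip tests within libraries and exact permutation tests between types, two-sided. Libraries with the same replicate number share a pool, according to the study's methods. In the first megabase, MAT2A-ChIP and IgG control shared 52.5% and 50.3% of their regions within pools and 53.8% and 49.7% between pools. Wilson intervals at 95% cover counting error only.

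Regions were named by rule: the 5 highest median scores among regions in all 6 libraries, the 3 widest, the one nearest to position 1 (with the region that tied with it), the 3 called in most libraries on different chromosomes other than 14, specific peaks, and up to 3 called in both libraries of 1 type only. The regions, lists, rules and tests were chosen with earlier results of these data known. The alternatives were a minimum score of 100, merging across gaps up to 500 bp, an overlap of 50%, lists of equal length (1788 peaks), other windows, chromosome 14 left out, the pool as a block and each library left out. Python 3.11.15, numpy 2.4.6, scipy 1.17.1 and pandas 2.3.3 were used, and the scripts were tested on simulated data. The bosTau8 sequence and gene models were not used here.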

Additional observations from a re-analysis of the deposited data

How the results depend on the processing

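With a minimum score of 100, there were 128 regions, 26 of them in all 6 libraries and 44 in 1, with 2 MAT2A-ChIP and 2 IgG control specific peaks. The score ratio turned to 0.894 (exact sign-flip permutation p = 0.03125, the smallest with 6 libraries, not adjusted and not by pool). The Input share lay 0.797 percentage points above the others (exact permutation p = 0.267). With lists of equal length the score ratio was 1.21 (exact sign-flip permutation p = 0.125) and the share difference 3.83 points (exact permutation p = 0.0667). Without chromosome 14 there were 109 regions, 20 in all 6 libraries and 48 in 1, with 3 MAT2A-ChIP and 1 IgG control specific peaks. A window of 500 kb gave 171 regions, and one of 100 kb, added after the data were seen, gave 59. Requiring absence from both controls gave 0 MAT2A-ChIP and 0 IgG control specific peaks, where 1.74% and 1.44% of the replicated peaks of all autosomes passed. In the paired analysis with the pool as a replicate block the density ratio stayed at 8.87 (exact p = 0.5, the smallest with 2 pools) and no other call changed. Leaving out each library in turn gave a density ratio from 8.28 to 9.27 (exact permutation p = 0.0625, the smallest with 5 libraries). Over the other alternatives it ran from 3.38 without chromosome 14 to 103 in the first 10 kb without chromosome 14, and it was 6.18 against windows 2 to 10. The specific peaks were not recomputed with a library left out, because the filter needs both replicates. The depth behind a peak is unknown, and a peak missing from a list does not show missing signal. The design of 2 libraries per type cannot reach an exact p of 0.05 between types.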
